A study of Mus musculus with 42 samples.

Results

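The end of mouse chromosome 15 was examined around Nr4a1, the gene deleted in these macrophages. Its members were all regions enriched for acetylated histone H3 (H3K27ac) or RNA polymerase II (Pol II) that lay between 95 Mb and the chromosome end of the mm10 build, apart from those overlapping Nr4a1 itself, which lies at chr15:101254269-101274795. For each antibody, the regions of its 18 libraries were merged where they overlapped. This gave 454 H3K27ac members of 65218 merged regions and 432 Pol II members of 70903, after 5 and 4 regions over Nr4a1 had been left out. The rule used position only, although earlier results of these data were known when it was set. The question was whether differences between genotypes gather near the deleted gene.

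The chromatin came from macrophages grown for 7 days from bone marrow of male mice aged 6 to 12 weeks, in medium conditioned by L929 cells. Nur77-KO mice were made, per the article, by deleting a loxP-flanked Nr4a1 in the whole body. They descended from a cross to a CMV-Cre line of C57Bl6/J mice, were then bred free of Cre, and were compared with wild type (WT) littermates. The genotype label of the KO libraries, however, says only cre. The article names C57Bl6/J for the CMV-Cre line only, and no strain for the loxP-flanked line or for the mice used. Cells of each genotype were untreated (0 h) or received lipopolysaccharide (LPS), the bacterial cell wall component that activates macrophages, at 100 ng/ml for 1 or 18 h. Each of the 6 groups had 3 libraries per antibody and 1 input library. The labels and the article name different products for the Pol II antibody, and which was used is unsettled. The article's methods speak of biological replicates, but not of whether the 3 libraries came from separate animals or cultures, so the p-values measure only the spread between these libraries.

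H3K27ac marks active promoters and enhancers, and Pol II marks genes that are being transcribed, with a weaker signal at many active enhancers. Nr4a1 encodes Nur77, an orphan nuclear receptor that is induced within minutes of macrophage activation and that binds DNA as a monomer at the NBRE motif. Its part of chromosome 15 is gene dense and also holds genes for tubulins, keratins, activin and BMP receptors, amino acid transporters, the integrin subunits Itga5 and Itgb7, and the Hoxc cluster. A level in these data is the number of tags in a region per 10 M (mega) tags of the library (normalized tags), and 0 means that no region passed the authors' search there, not that reads were absent. In bulk chromatin, fewer cells with a mark and less of the mark per cell cannot be told apart.

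Of the 7 H3K27ac members that differed between KO and WT at all 3 times, 6 are shown by 200 bases each, together with the region upstream of Acvr1b, which was the nearest called member on the centromeric side of Nr4a1 at 0 and 18 h. Sequences are the plus strand of the reference assembly GRCm38 (mm10), 5′ to 3′. Each window was placed on the searched motif nearest the middle of the region. Capitals mark a match, on either strand, to AP-1 (TGANTCA), the NBRE (AAAGGTCA), PU.1 (GAGGAAGT) or the NF-kB site.
Ano6 region, chr15:95825993-95826192: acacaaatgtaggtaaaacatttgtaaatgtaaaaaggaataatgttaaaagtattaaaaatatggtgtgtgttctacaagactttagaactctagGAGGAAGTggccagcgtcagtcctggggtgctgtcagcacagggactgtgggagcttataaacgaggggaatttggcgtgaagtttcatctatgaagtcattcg
Tuba1a region, chr15:98959146-98959345: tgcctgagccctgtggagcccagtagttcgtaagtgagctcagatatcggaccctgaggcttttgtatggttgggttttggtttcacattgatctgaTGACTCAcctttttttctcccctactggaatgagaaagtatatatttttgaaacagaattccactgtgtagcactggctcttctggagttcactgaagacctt
Lima1 region, chr15:99835521-99835720: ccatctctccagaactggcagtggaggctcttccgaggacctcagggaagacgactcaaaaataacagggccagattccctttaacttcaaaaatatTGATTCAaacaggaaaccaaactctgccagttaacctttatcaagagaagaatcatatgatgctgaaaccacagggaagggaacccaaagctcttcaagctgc
Gm5475 region, chr15:100443195-100443394: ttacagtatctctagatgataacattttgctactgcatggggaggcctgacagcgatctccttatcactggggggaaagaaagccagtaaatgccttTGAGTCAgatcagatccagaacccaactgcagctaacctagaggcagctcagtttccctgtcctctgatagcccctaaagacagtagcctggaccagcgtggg
Pou6f1 region, chr15:100590521-100590720: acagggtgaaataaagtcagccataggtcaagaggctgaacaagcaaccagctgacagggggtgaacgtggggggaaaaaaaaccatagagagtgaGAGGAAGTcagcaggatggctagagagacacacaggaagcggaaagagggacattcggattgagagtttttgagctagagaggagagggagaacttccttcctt
Acvr1b region, chr15:101160376-101160575: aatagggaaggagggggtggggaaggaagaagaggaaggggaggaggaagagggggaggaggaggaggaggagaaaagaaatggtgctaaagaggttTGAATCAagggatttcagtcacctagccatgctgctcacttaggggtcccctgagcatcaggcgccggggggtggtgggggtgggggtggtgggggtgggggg
Krt75 region, chr15:101583241-101583440: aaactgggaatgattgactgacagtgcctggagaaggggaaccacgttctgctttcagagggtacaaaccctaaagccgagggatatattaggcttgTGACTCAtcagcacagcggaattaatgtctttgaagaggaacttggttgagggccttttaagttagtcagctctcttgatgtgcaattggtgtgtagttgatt

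Each of these 7 windows holds a match because it was placed on one, an AP-1 match in 5 and a PU.1 match in 2. These counts cannot be set against the shares of central windows given next. No NBRE match was found in any of the 7 whole regions. Repeats, as soft-masked in the genome, covered 53.2% of the Tuba1a region and 9.89% of the Krt75 region. Over the central 300 bases of all H3K27ac regions, AP-1 was found in 14%, PU.1 in 4.86%, the NBRE in 1.55% and NF-kB in 0.465%. The members lay close to this, with 12.6%, 4.85%, 1.32% and 0.44%. The 62 H3K27ac members called at any time held AP-1 in 10 windows (16.1%), PU.1 in 5 and neither the NBRE nor NF-kB in any. Of the 46 Pol II members called at any time, 10 held AP-1 (21.7%, against 10.7% of all Pol II regions). These are counts of letters and say nothing of binding.

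The regions over Nr4a1 were left out of all counts. Which part of the gene was deleted is not given in the sources used here, and the lists hold KO regions across it. An H3K27ac region inside the gene, at chr15:101261540-101263576, held 17.3, 23.0 and 20.5 normalized tags in the KO libraries at 0 h and 61.1, 64.0 and 64.3 in WT (log2 change -1.28, adjusted p = 0.010 by limma). The region over the gene start was at 69.4, 61.4 and 61.3 in KO against 78.1, 56.4 and 74.4 in WT. The region inside the gene was called at 0 h only, with changes of -0.53 and -0.81 at 1 and 18 h that did not pass, and no other H3K27ac region over the gene was called at any time. Pol II over the 3′ part of the gene was 107, 102 and 86.0 in KO before LPS and 187, 186 and 190 in WT (log2 change -0.87, adjusted p = 6.0e-05). At 1 h of LPS the order was the opposite, since KO had 33.5, 43.0 and 36.6 and WT had 25.5, 30.6 and 23.5 (log2 change 0.38, adjusted p = 0.010 by limma). However, the median of all Pol II regions was also 0.31 higher in KO at 1 h. The change at Nr4a1 is close to that shift and is not read as a reversal at this gene.

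Macrophage identity and depth were checked over the whole series. Of 8 macrophage marker gene starts, 8 lay in a region in all 18 libraries of each antibody, and of 14 marker genes of other cell types, 0 did in any library. H3K27ac libraries were deeper in KO (23.6 to 55.4 M tags) than in WT (13.5 to 31.1 M), whereas Pol II libraries had 23.2 to 35.2 M in KO and 21.7 to 36.1 M in WT. A deeper library could show weaker regions, and the part of depth in the H3K27ac differences was not tested. The KO H3K27ac libraries numbered replicate 1 at 1 and 18 h stood apart, with correlations across regions of 0.906 to 0.912 to their replicates, against 0.989 to 0.997 in the other 14 pairs. Pol II replicates correlated at 0.989 to 0.995.

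Before LPS, H3K27ac differed between KO and WT at 20 of the 315 members tested (6.35%), of which 14 were higher and 6 lower in KO. The share over all regions tested was 1.85% (1.26% higher, 0.590% lower). A member was called when its adjusted p by limma was under 0.05 and its log2 change over 1 in size. On the rest of chromosome 15, 11 of 1409 tested regions were called (0.781%), all of them higher in KO. The median log2 change of the members was 0.12, against 0.07 over all regions. Thus most members did not pass both thresholds, and the called share was larger than on the rest of the chromosome. Without KO replicate 1, 21 members were called at 0 h (7.00%, against 2.58% of all regions), without replicate 2 of both genotypes 10 (3.33%, against 1.52%) and without replicate 3 of both 9 (3.02%, against 1.38%). With the regions that overlap an input region left out, 3 of 53 were called (5.66%, against 4.79%), all higher in KO.

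At 1 h of LPS, 36 of 290 H3K27ac members were called (12.4%), 27 of them higher and 9 lower in KO. This share was close to the background of that comparison, since 14.1% of all regions (9.64% higher, 4.43% lower) and 16.2% of the rest of chromosome 15 were called. The split depended on the scaling. The median of all regions was 0.16 higher in KO on the log2 scale as deposited and -0.03 after each library was centred on its median. With that centring 18 members were higher and 20 lower, and with quantile normalization 22 and 18. The count also changed without KO replicate 1, which stood apart at 1 and 18 h. With it left out at all 3 times there were 80 calls among 281 members (47 higher, 33 lower), with 29.2% of all regions called.

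At 18 h, 28 of 276 H3K27ac members were called (10.1%), against 3.74% of all regions and 3.37% of the rest of chromosome 15. The direction turned, with 10 higher and 18 lower in KO, and the members' median log2 change was -0.15 against 0.0018 over all regions. Over all regions, 2.62% were higher and 1.12% lower at this time, so the members had the larger part of their calls in the other direction. The KO libraries at this time were the deeper ones, with 31.3 to 55.4 M tags against 15.0 to 31.1 M in WT. The split depended on the setting. With pseudocount 1, 19 members were higher and 20 lower, and with the regions that overlap an input region left out 2 of 34 were called, both higher (5.88%, below the 9.15% of all regions). Without KO replicate 1, 26 were called, 12 higher and 14 lower, and without replicate 2 or 3 of both genotypes 14, of which 10 were lower. Averaged over the 3 times, 18 of 366 members were called (4.92%, against 0.944% of all regions and 0.46% of the rest of the chromosome).

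Pol II gave a similar order of shares. At 0 h, 11 of 234 members were called (4.70%, against 2.27% of all regions, with 1.14% higher and 1.13% lower), 8 higher and 3 lower in KO. At 1 h, 21 of 159 were called (13.2%, against 8.59%, with 6.60% higher and 1.98% lower), 18 higher and 3 lower. The median of all Pol II regions was 0.31 higher in KO at 1 h and -0.03 after centring, with which 21 members were again called, 11 higher and 10 lower. Of these, 14 were among the 21 called as deposited, and none of the 21 turned its sign. Quantile normalization gave 17 higher and 11 lower. At 18 h, 18 of 220 were called (8.18%, against 6.17%, with 3.68% higher and 2.49% lower), 5 higher and 13 lower, and centring gave 9 higher and 13 lower. Over the 3 times together, 6 of 286 were called (2.1%, against 0.592%). With pseudocount 1 the Pol II shares of members were close to those of all regions at 0 h (10.7% against 9.59%) and 18 h (15.9% against 15.1%).

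The shares on this segment were not the largest in the genome. An 8-Mb stretch of distal chromosome 1, taken for comparison because many calls were known to lie there, had H3K27ac calls at 20.1% of tested regions at 0 h, 29.9% at 1 h and 24.0% at 18 h. Its Pol II shares were 15.4%, 19.1% and 21.9%.

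**Figure D1:**
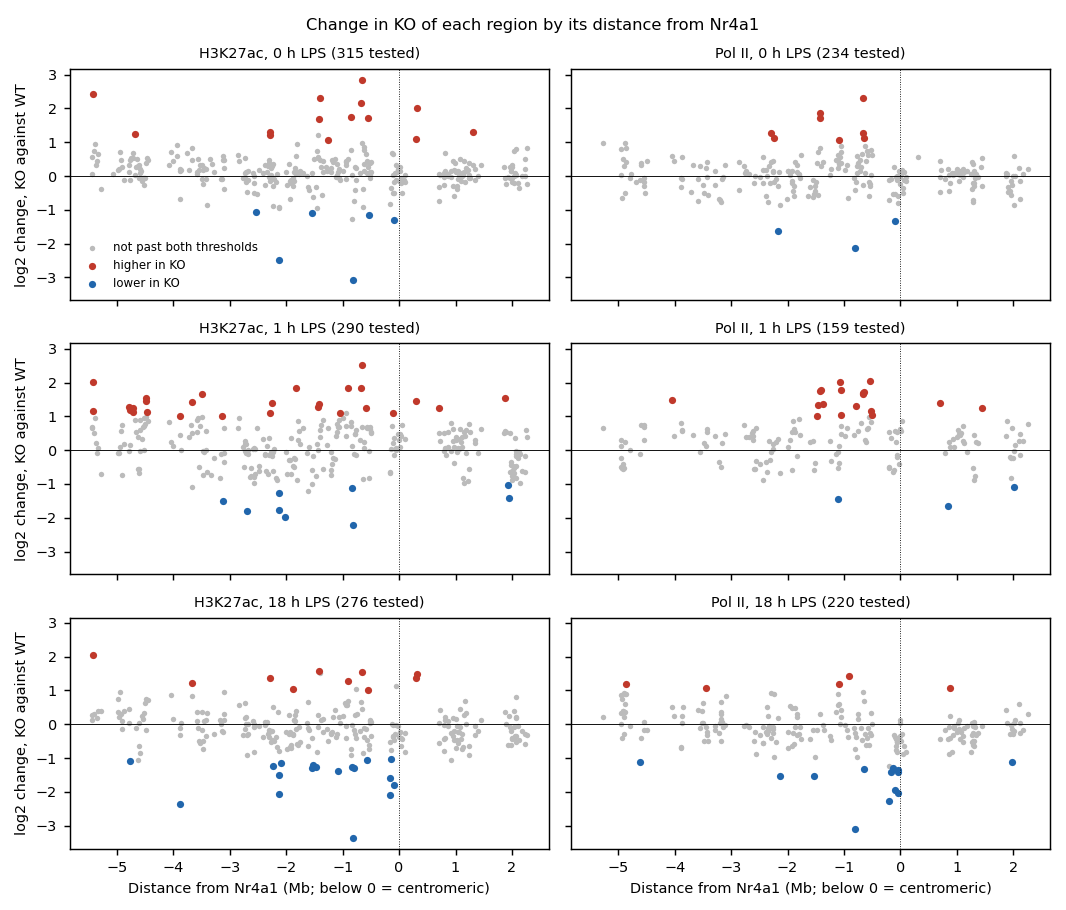
Log2 change in normalized tags between KO and WT (vertical axis) against distance from Nr4a1 in Mb (horizontal axis, negative towards the centromere) for every tested H3K27ac and Pol II member at 0, 1 and 18 h of LPS. Red points were called higher and blue points lower in KO, and grey points passed at most 1 of the 2 thresholds. Called points lie mostly from Nr4a1 to 3 Mb on the centromeric side, with both signs side by side, except for H3K27ac at 1 h, when 17 of 36 lie there.

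By distance, most calls lay on the centromeric side within 3 Mb of Nr4a1, except for H3K27ac at 1 h, when 17 of the 36 did. The limits of 3 Mb and, on the telomeric side, 1 Mb were not in the plan of the analysis, which named 1-Mb windows only. The 3-Mb limit borders a window without calls at 0 h, with 0 of 33 H3K27ac and 0 of 23 Pol II members from 3 to 4 Mb. Shares inside and beyond it are therefore descriptions only. There, 15 of 152 H3K27ac members were called at 0 h (9.87%), 17 of 136 at 1 h (12.5%) and 22 of 144 at 18 h (15.3%), against 1.85%, 14.1% and 3.74% of all regions. This stretch held 152 of the 315 H3K27ac and 122 of the 234 Pol II members tested at 0 h. Farther out on that side, 2 of 77 were called at 0 h, 14 of 76 at 1 h (18.4%) and 4 of 59 at 18 h. Towards the telomere, 2 of 29, 2 of 21 and 2 of 26 members within 1 Mb were called, all higher in KO, and beyond 1 Mb 1 of 57, 3 of 57 and 0 of 47. At an unadjusted p under 0.05 by limma, 16 of those 47 passed, with changes too small or too uncertain for a call. Pol II showed 11 of 122 members called within 3 Mb on the centromeric side at 0 h (9.02%), 16 of 86 at 1 h (18.6%) and 13 of 108 at 18 h (12.0%), against 2.27%, 8.59% and 6.17% of all regions. Beyond 3 Mb these were 0 of 46 (14 at an unadjusted p under 0.05 by limma), 1 of 33 and 3 of 54. Towards the telomere, Pol II calls within 1 Mb were 0 of 21 (3 at an unadjusted p under 0.05), 2 of 9 (22.2%) and 1 of 17. Beyond 1 Mb they were 0 of 45 (10 at an unadjusted p under 0.05), 2 of 31 and 1 of 41. At 1 h the share within 1 Mb on the telomeric side was thus above that of the centromeric stretch, over few members.

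At 18 h lower members were most frequent in the first Mb on the centromeric side. In the first Mb on the centromeric side, 11 of 54 H3K27ac members were called (20.4%), 8 of them lower in KO, and 10 of 46 Pol II members, 9 of them lower. In the first 0.5 Mb on that side all calls at this time were lower, 4 of 17 for H3K27ac and 7 of 21 for Pol II. In the first 0.5 Mb on the telomeric side 2 of 9 H3K27ac members were called at 18 h (22.2%), both higher. At the other times the place of the highest H3K27ac share depended on the window. With 1-Mb windows the first Mb on the centromeric side had the highest share at 0 h (7 of 54, 13.0%). At 1 h the highest shares lay far from the gene, at 5 to 6 Mb (2 of 10, 20.0%) with 1-Mb windows and at 4 to 4.5 Mb (3 of 8, 37.5%) with 0.5-Mb windows. In the first 0.5 Mb on the centromeric side 1 of 16 H3K27ac members was called at 0 h (6.25%) and 1 of 14 at 1 h (7.14%), whereas from 0.5 to 1 Mb 6 of 38 (15.8%) and 6 of 30 (20.0%) were. In the first 0.5 Mb on the telomeric side 2 of 10 (20.0%) and 1 of 6 (16.7%) were called at these times. Members of a stretch share the same libraries and many lie in the same genes, so their counts are not independent and were given no test.

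**Figure D2:**
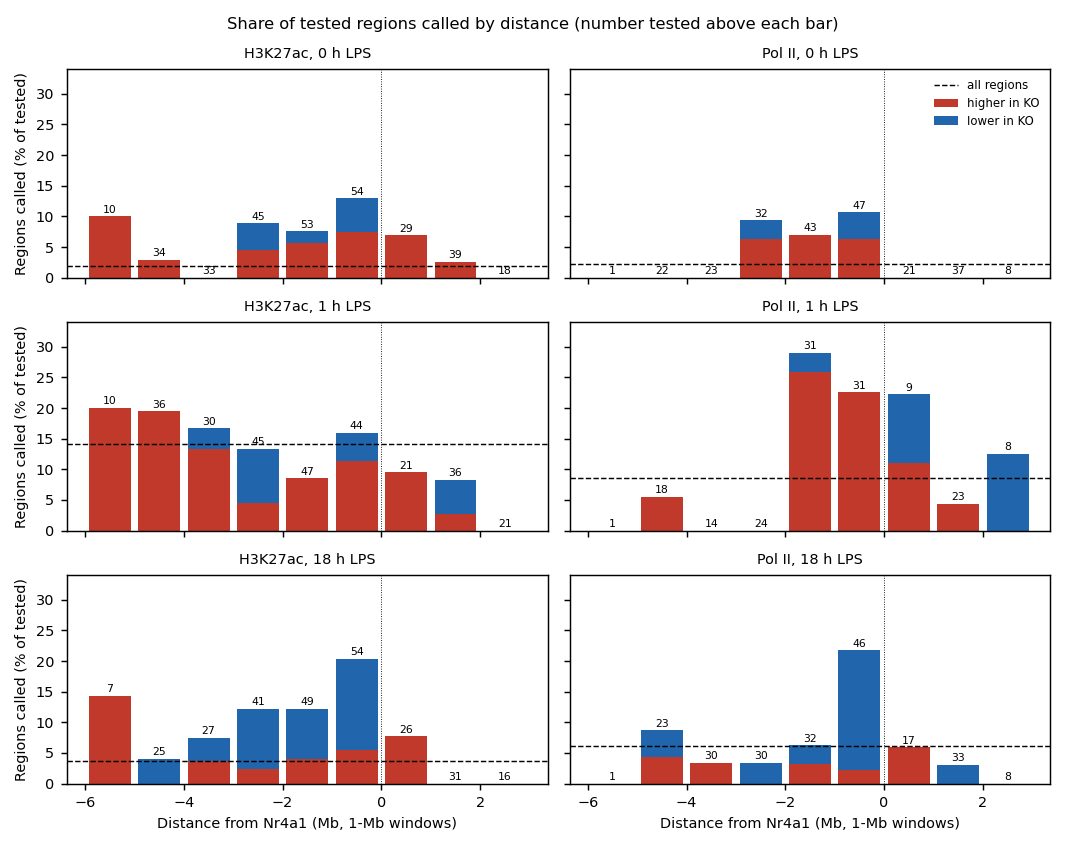
Share of tested members called (vertical axis, percent) in 1-Mb windows of distance from Nr4a1 (horizontal axis), stacked by direction in KO, for each antibody and LPS time. Numbers above the bars are members tested and the dashed line is the share over all regions, which was 1.85%, 14.1% and 3.74% for H3K27ac and 2.27%, 8.59% and 6.17% for Pol II. For H3K27ac, windows from Nr4a1 to 3 Mb on the centromeric side stand above the line at 0 and 18 h, as do the first telomeric Mb and most windows farther out on the centromeric side, while at 1 h the H3K27ac windows range from 0 to 20% around it.

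Between Nr4a1 and the first call on either side lay members that were tested and not called. The nearest called H3K27ac members were 92.6 kb towards the centromere at 0 and 18 h, with 7 and 5 tested members closer, and 112 kb at 1 h, a call near Acvrl1 that ended after centring (0.92). On the telomeric side, the nearest was 307 kb away at all 3 times, with 8, 5 and 7 tested members closer. For Pol II, the nearest on the centromeric side were at 93.3, 499 and 36.1 kb at 0, 1 and 18 h, of which the one at 1 h, near Slc4a8, ended after centring (0.68). None of the 5 members nearest on each side was called with either antibody at any time, and at an unadjusted p under 0.05 by limma there were 1 of 8, 2 of 6 and 3 of 7 tested H3K27ac members at 0, 1 and 18 h and 1 of 8, 3 of 4 and 2 of 6 Pol II members. Without KO replicate 1, the H3K27ac region near Krt80 starting at 101332702 was called at 1 h, with a change of 1.14 in place of 0.76. The H3K27ac region 4.75 kb upstream of Nr4a1 had a mean of 184 normalized tags in KO against 205 in WT at 0 h (log2 change -0.14). At the start of Atg101, an autophagy gene on the telomeric side, H3K27ac means were 490 in KO against 408 in WT and Pol II means 164 and 159 at 0 h.

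At the outer edge of the segment, the first members inside 95 Mb were weak. The first H3K27ac member inside, at chr15:95276566-95277066, was found in 1 library, KO replicate 1 at 18 h, at 4.42, and the last region outside in that library only, at 4.97. The first Pol II member inside was found only in KO replicate 3 at 1 h, at 5.39, whereas the last Pol II region outside was strong, at 407 to 764 in all 18 libraries, and was not called at any time (log2 changes -0.10, 0.20 and -0.14).

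Of the 454 H3K27ac members, 62 were called at 1 or more times, which was 13.7% against 11.2% of all regions. Of these, 47 were called at a single time, 8 at 2 times and 7 at all 3. None was called in both directions. The 7 were 1.54% of the members, against 136 of all regions (0.209%), 1 of the 2179 on the rest of chromosome 15 (0.0459%) and 20 of 346 in the chromosome 1 stretch (5.78%). Of the 7, 5 lay within 3 Mb on the centromeric side. Of the 432 Pol II members, 46 were called at 1 or more times (10.6%, against 5.42% of all regions), 4 at 2 times and 0 at all 3 (52 of all regions were).

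Among these 7, 2 were lower in KO. The stronger decrease was in an intergenic region between Gm5475 and Letmd1, a gene for a mitochondrial membrane protein, at chr15:100442476-100444529, 0.81 Mb from Nr4a1. None of the 9 KO libraries listed it, the 2 that stood apart included. WT held 75.9, 78.2 and 66.6 normalized tags before LPS. After 1 h WT held 32.6, 35.3 and 41.2, and after 18 h 86.1, 95.5 and 97.8. On the log2(normalized tags + 10) scale the changes were -3.06 (SE 0.15, adjusted p = 3.9e-09), -2.21 and -3.36 (adjusted p = 1.0e-09), which are no bounds because KO was listed at 0. It was the only H3K27ac member found in every WT library and in no KO library, as were 23 of all regions.

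Pol II at this place followed the mark. The Pol II region at chr15:100442321-100444481 was absent from every KO list. WT held 37.5, 32.0 and 32.8 before LPS, then 73.3, 76.9 and 75.5 by 18 h, with log2 changes of -2.14 (adjusted p = 2.3e-09) and -3.09 (adjusted p = 9.2e-12). At 1 h no library of either genotype had the region.

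The other decrease was in an intergenic region upstream of Spats2, a gene that begins at 99125916, at chr15:99121757-99123632. At 0 h KO was listed at 0, 0 and 4.76 and WT at 50.1, 53.8 and 57.5 normalized tags (log2 change -2.48, SE 0.20, adjusted p = 7.7e-07). The change was -1.78 at 1 h and -1.49 at 18 h, and KO and WT overlapped at no time. The neighbouring region over the gene start of Spats2 also fell, by 1.27 on the log2 scale at 1 h and by 2.07 at 18 h, when KO was at 0, 11.7 and 17.8 and WT at 72.8, 56.3 and 71.8. Pol II over that start was listed at 0 in KO at 18 h and at 16, 20.8 and 20.2 in WT (log2 change -1.53).

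The other 5 members called at all times were higher in KO. Inside Pou6f1, which encodes a POU domain transcription factor, H3K27ac at chr15:100588175-100591500 was 97.5, 98.6 and 92.2 in KO at 0 h and 0, 8.86 and 7.01 in WT (log2 change 2.85, SE 0.32, adjusted p = 2.5e-05). At 1 h KO had 98.9, 29.1 and 34.1 and at 18 h 15.7, 25.2 and 18.0, with WT listed at 0 at both times (log2 changes 2.52 and 1.55). The value of 98.9 came from the library that stood apart, and without KO replicate 1 the change at 1 h was 2.05. Another H3K27ac region in the gene, starting at 100583066, was at 53.4, 58.1 and 58.8 in KO against 8.61, 7.35 and 0 in WT at 0 h (2.17).

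Pol II rose at the same gene. Over the start region of Pou6f1 at chr15:100598082-100602816, Pol II was 213, 215 and 200 in KO against 89.8, 99.1 and 81.5 in WT at 0 h (log2 change 1.13, adjusted p = 2.2e-07). At 1 h it was 248, 229 and 227 in KO against 58.6, 72.7 and 63.3 in WT (1.71, adjusted p = 5.3e-10). At 18 h the 3 KO values of 333, 337 and 341 still lay above the WT values of 219, 212 and 190, but the change of 0.68 was below the threshold of 1. Inside the gene, a Pol II region starting at 100590077 held 44.8, 36.8 and 36.4 in KO before LPS, with WT listed at 0 (2.30, adjusted p = 3.9e-09).

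Lima1, an actin cross-linking protein gene 1.42 Mb from Nr4a1, had the same direction. H3K27ac in its body at chr15:99833858-99836514 was 139, 142 and 126 in KO against 38.2, 38.2 and 28.8 in WT at 0 h (log2 change 1.70, SE 0.25, adjusted p = 4.0e-04). It was 1.38 at 1 h and 1.59 at 18 h, when WT was listed at 0. Another H3K27ac region of the gene, starting at 99850124, was at 33.8, 40.9 and 43.4 in KO before LPS, with WT listed at 0 (2.30). Pol II over the Lima1 region that begins at 99795432 and covers an annotated start was 642, 645 and 630 in KO against 193, 164 and 193 in WT at 1 h (log2 change 1.75, SE 0.13, adjusted p = 5.7e-08). Its change was 0.83 at 0 h and 0.30 at 18 h, neither called.

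Further gains lay inside an intron and between genes. In an intron of Ano6, the gene of a phospholipid scramblase, the region chr15:95821123-95830202 had the highest level of the 7, at 464, 464 and 460 normalized tags in KO against 72.6, 89.6 and 74.4 in WT at 0 h (log2 change 2.42, SE 0.19, adjusted p = 6.9e-07). It was 514, 320 and 338 against 83.7, 79.8 and 98.2 at 1 h (2.02) and 196, 236 and 217 against 41.9, 31.4 and 64.5 at 18 h (2.06). This member lay 5.42 Mb from Nr4a1, far outside the crowded stretch, and it overlaps an exon of the antisense gene Gm17546. The weak region at chr15:98958513-98959758, upstream of the tubulin gene Tuba1a, was at 15.0, 15.8 and 13.4 in KO at 0 h and listed at 0 in WT (1.31), with 1.11 at 1 h and 1.36 at 18 h. Its call at 1 h ended after centring (0.93).

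On the telomeric side, calls at all times came from 1 member. It lies between keratin genes, nearest to Krt75, at chr15:101581641-101585575. H3K27ac there was 236, 249 and 218 in KO against 89.6, 118 and 109 in WT at 0 h (log2 change 1.09, SE 0.20, adjusted p = 0.0034). At 1 h it was 274, 145 and 160 against 52.9, 68.1 and 64.7 (1.45), and at 18 h 84.3, 98.1 and 84.7 against 27.9, 38.3 and 21.5 (1.36). A weaker region farther on, starting at 101597341, was at 26.0, 31.3 and 34.4 in KO before LPS, with WT listed at 0 (2.01), and was again called at 18 h (1.49). The nearest Pol II calls on this side were 701 kb away at 1 h, near Krt78, and 887 kb away at 18 h, in Soat2.

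**Figure D3:**
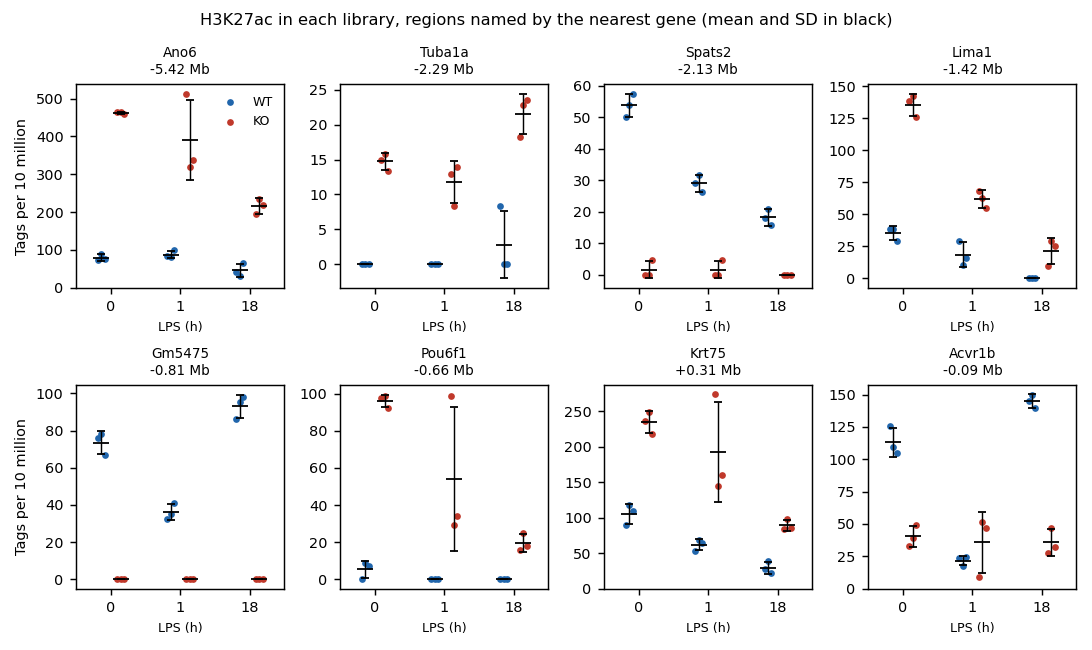
H3K27ac level (normalized tags, vertical axis) in every KO and WT library at 0, 1 and 18 h of LPS for the 7 members called at all times and the region upstream of Acvr1b. Dots are libraries and black bars are the mean and SD of 3. KO lies at 0 throughout for the Gm5475 region and above WT in the Ano6, Lima1, Pou6f1, Tuba1a and Krt75 panels.

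Of the 18 H3K27ac members lower in KO at 18 h, the 4 nearest to Nr4a1 lay at Acvr1b, Ankrd33 and Fignl2 (2), and the call at Ankrd33 ended after centring (-0.97). Upstream of Acvr1b, a type I receptor for activins, and downstream of Acvrl1, a type I receptor of the TGF-beta family, H3K27ac at chr15:101159099-101161640 was 32.7, 39.3 and 49.1 in KO against 126, 109 and 104 in WT at 0 h (log2 change -1.30, SE 0.33, adjusted p = 0.032). At 18 h it was 27.5, 47.1 and 32.5 against 145, 150 and 140 (-1.78, adjusted p = 0.0025). At 1 h the KO values of 8.82, 51.1 and 47.1 overlapped the WT values of 23.3, 17.5 and 24.2 (0.36). The 8.82 came from the library that stood apart, and without KO replicate 1 the change was 0.91, not called. Pol II over the same place was 9.82, 7.58 and 0 in KO against 42.4, 53.8 and 50.2 in WT at 18 h (-1.95, adjusted p = 1.5e-05), and fell by 1.33 on the log2 scale at 0 h.

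Pol II also fell around the 3′ end of Acvr1b at 18 h. The region chr15:101212929-101218212 covers the end of that gene, at 101213684, lies mostly past it and is nearest to the start of Grasp. There, KO held 7.24, 5.00 and 9.92 and WT 56.6, 65.2 and 58.9 normalized tags (log2 change -2.02, SE 0.29, adjusted p = 7.4e-05 by limma). A pair of further Pol II regions in the gene, starting at 101201160 and 101204918, was listed at 0 in KO, with changes of -1.34 and -1.42. Over the start of Acvr1b itself neither antibody gave a call.

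Fignl2, a gene of the fidgetin-like microtubule-severing family 170 kb from Nr4a1, had the lowest H3K27ac log2 change of the gene starts tested at 18 h. H3K27ac over its start was 102, 185 and 139 in KO against 626, 628 and 620 in WT (log2 change -2.1, SE 0.18, adjusted p = 1.2e-06). It was 198, 202 and 196 against 353, 346 and 378 at 0 h (-0.82, not called). The genotype difference at 18 h was larger than at 0 h by the interaction test (log2 difference -1.28). Pol II over the start was 201, 211 and 174 in KO against 568, 532 and 497 in WT at 18 h (-1.40, adjusted p = 1.8e-07), and in the 3′ part of the gene, at the region starting at 101047709, 11.9, 7.42 and 6.39 against 75.7, 80.6 and 78.2 (-2.26).

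The other lower members at 18 h lay farther away on the centromeric side. At the start of Cox14, a cytochrome c oxidase assembly factor, H3K27ac was 178, 245 and 222 in KO against 530, 522 and 472 in WT (log2 change -1.21, adjusted p = 1.2e-05). At the start of Cers5, a ceramide synthase, it was 26.8, 41.4 and 38.2 against 105, 96.4 and 96.2 (-1.28, adjusted p = 1.4e-05). Next to Gpd1, the cytosolic glycerol-3-phosphate dehydrogenase, it was 5.51, 0 and 0 against 13.3, 25.6 and 17.3 (-1.29), and Pol II there fell by 1.52 on the log2 scale. Farther out, the body of Pced1b was at 0, 7.19 and 0 in KO against 62.5, 46.7 and 45.3 in WT (-2.35, SE 0.26, adjusted p = 3.0e-05).

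Slc38a1, a glutamine transporter gene 4.61 Mb from Nr4a1, was the only Pol II member of the outer stretch that fell at 18 h. Over the gene Pol II was 266, 274 and 253 in KO against 576, 592 and 591 in WT (log2 change -1.12, SE 0.07, adjusted p = 5.2e-09). At 0 h it was 644, 668 and 666 against 612, 758 and 776 (-0.11). The drop was larger at 18 h than at 0 h by the interaction test (-1.01), a call that ended after centring (-0.85).

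Against this direction, the region next to Methig1, a methyltransferase-like gene, was higher in KO after LPS. H3K27ac at chr15:100348106-100352232 was 116, 131 and 103 in KO against 33.9, 44.0 and 50.1 in WT at 18 h (log2 change 1.27, adjusted p = 0.0011). At 1 h it was 14.5, 31.4 and 36.4 against 0 in all WT libraries (1.85). Pol II was listed at 11.9, 17.7 and 22.4 in KO at 18 h and at 0 in WT (1.43, adjusted p = 2.6e-07).

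At 1 h, Pol II was higher in KO over the bodies of several genes. Letmd1, which is the gene next to the Gm5475 region, was at 323, 299 and 282 in KO against 124, 111 and 109 in WT (log2 change 1.32, SE 0.08, adjusted p = 5.7e-09 by limma). At 18 h its KO values lay below WT without a call (-0.37). Galnt6, an O-glycosylation enzyme gene, was at 197, 184 and 186 against 92.9, 73.9 and 70.4 over its start (1.17), and at 32.5, 45.6 and 19.8 against 0 in its body (2.05). Cers5 was at 202, 218 and 228 against 82.9, 123 and 103 (1.01), opposite to its H3K27ac at 18 h, in a region that also covers the 3′ end of Lima1. These changes include the shift of 0.31 that all Pol II regions had at 1 h. After centring, the calls of Letmd1 (0.97), the Galnt6 start (0.82) and Cers5 (0.67) ended. In all, 7 of the 21 Pol II calls and 9 of the 36 H3K27ac calls at 1 h ended.

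In Dip2b the signs were mixed at 1 h. One Pol II region of its body, starting at 100174682, was at 64.5, 52.4 and 67.9 in KO against 9.48, 7.36 and 5.68 in WT (log2 change 2.03, adjusted p = 2.7e-06). Another, starting at 100114337, was at 54.7, 73.4 and 29.9 against 150, 158 and 155 (-1.45, adjusted p = 0.0011). Both calls in Dip2b held after centring.

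H3K27ac at 1 h rose at the start of Bin2, a BAR domain protein of blood cells. It was 188, 336 and 350 in KO against 102, 120 and 118 in WT (log2 change 1.24, adjusted p = 2.4e-04). Without KO replicate 1 the change was 1.52. Inside Nckap5l, at the region starting at 99423100, it was 12.0, 35.4 and 37.1 against 0 in WT (1.85, and 2.21 without KO replicate 1). The largest decrease over a gene start was at Kcnh3, a potassium channel gene, at 44.1, 0 and 0 in KO against 55.5, 69.2 and 53.2 in WT (-1.97, adjusted p = 0.0048). In that member the KO library that stood apart was near WT and the other 2 were listed at 0, and the change was -2.79 without it. A region inside Ccnt1, the gene of cyclin T1, was at 8.82, 0 and 5.15 against 30.7, 42.4 and 46.7 (-1.80).

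**Figure D4:**
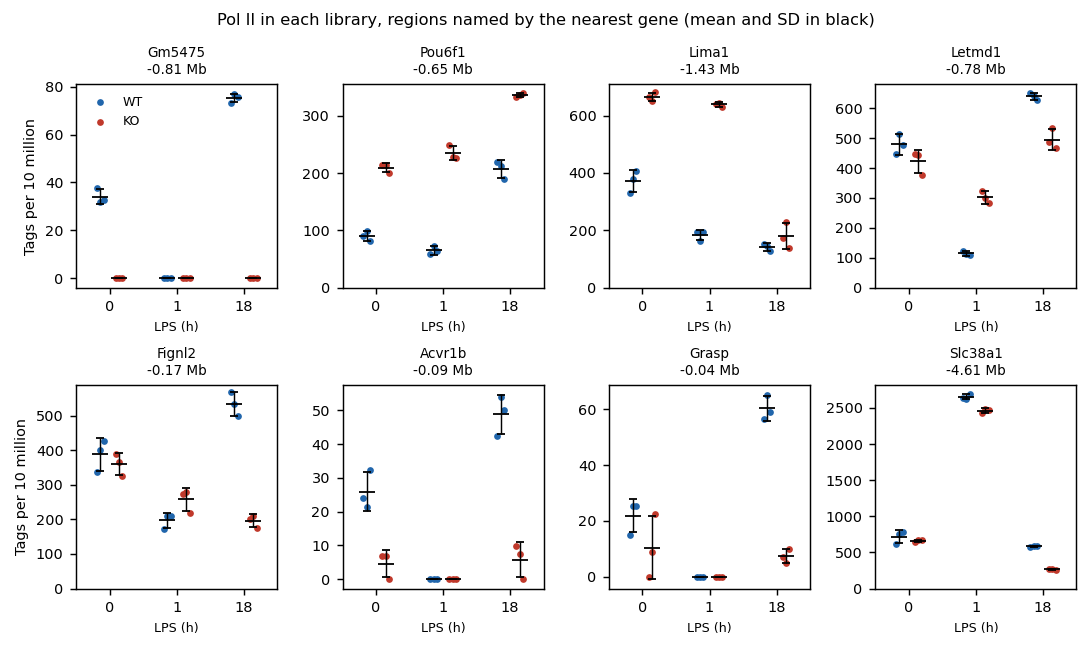
Pol II level (normalized tags, vertical axis) in every KO and WT library at 0, 1 and 18 h of LPS for 8 members named in the text, each titled by the gene with the nearest start. Dots are libraries and black bars are the mean and SD of 3. KO lies above WT at 1 h in the Pou6f1, Lima1 and Letmd1 panels and below WT at 18 h in the Gm5475, Fignl2, Acvr1b, Grasp and Slc38a1 panels.

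At the starts of listed genes the calls were few, with more at 1 h when KO replicate 1 was left out. Of the starts of 10 macrophage and inflammatory genes, among them the integrin genes Itga5 and Itgb7 and the receptor Gpr84, none was called for H3K27ac by limma at 0 h (10 tested, 1 at an unadjusted p under 0.05) or at 18 h (9 tested, 4 at an unadjusted p under 0.05), and Bin2 rose at 1 h. Without KO replicate 1, the starts of Itgb7 (1.19), Nckap1l (-1.03), the transcription factor gene Atf1 (1.27) and Acvrl1 (1.07) were also called for H3K27ac at 1 h. With Pol II, Galnt6 rose at 1 h and Nfe2, a myeloid and erythroid transcription factor, fell at 18 h, from 12.4, 11.1 and 12.0 in WT to 0 in KO (-1.13). The median Pol II change of this list at 1 h was 0.45, against 0.31 over all regions, and 6 of its 7 tested regions had an unadjusted p under 0.05. Of the 13 transcription and chromatin starts tested for H3K27ac at 0 h, which included Atf1, Kmt2d and Sp1, none was called (6 of their 17 regions had an unadjusted p under 0.05), and at 1 h Cbx5, the heterochromatin protein 1 alpha gene, fell by 1.02 on the log2 scale. Among metabolic genes, a start of Pfkm, the muscle phosphofructokinase, was called higher for H3K27ac at 1 h (1.03), a call that ended after centring (0.84). Of the 5 metabolic starts tested, Cers5 was also called, lower for H3K27ac at 18 h and higher for Pol II at 1 h, as was Slc38a1, lower for Pol II at 18 h. Of the cytoskeletal starts, Lima1 rose for Pol II at 1 h. With all libraries the starts of the activin and BMP receptors Acvrl1 and Acvr1b were called at no time, and 0 of 9 Hoxc genes had a region of either antibody over the start. The median log2 change of the macrophage list at 0 h was 0.07 for H3K27ac and 0.04 for Pol II, against 0.07 and 0.04 over all regions.

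Calls lay mostly away from gene starts. At 0 h, 0 of 98 H3K27ac members over a gene start were called by limma, although 28 had an unadjusted p under 0.05, against 20 called of 217 elsewhere (9.22%), and over all regions these shares were 0.477% and 2.31%. At 1 h 6 of 97 (6.19%) and 30 of 193 (15.5%) were called, against 4.49% and 17.4% of all regions, and at 18 h 5 of 92 (5.43%) and 23 of 184 (12.5%), against 1.04% and 4.76%. For Pol II, 2 of 81 members over a gene start and 9 of 153 elsewhere were called at 0 h (2.47% and 5.88%, against 1.01% and 2.80% of all regions). At 1 h these were 8 of 81 and 13 of 78 (9.88% and 16.7%, against 3.63% and 12.0%), and at 18 h 4 of 79 and 14 of 141 (5.06% and 9.93%, against 2.28% and 8.01%). Levels of called members varied widely. Of the 14 H3K27ac members higher in KO at 0 h, 6 were listed at 0 in all WT libraries, and the median KO level of the 14 was 36.7, against a median level of 53.0 over the members tested. At 18 h the 18 lower members had a median WT level of 75.1, against 60.0 over the members tested, and 5 of them were listed at 0 in all KO libraries.

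The antibodies were compared where a Pol II member overlapped an H3K27ac member. Over 260 pairs tested at 0 h the log2 changes correlated with a Pearson r of 0.597 and a Spearman rho of 0.467. At 1 h these were 0.337 and 0.345 over 212 pairs, and at 18 h 0.632 and 0.493 over 225. The pairs share position, and neighbours share genes, so these are descriptions. Of the H3K27ac calls with a tested Pol II region, 11 of 16 had the same sign of Pol II change at 0 h, 9 of 13 at 1 h and 18 of 19 at 18 h. Members called with both antibodies numbered 7, 2 and 7, which was 2.81%, 0.985% and 3.21% of the H3K27ac members tested with a tested Pol II region, against 0.419%, 1.25% and 1.02% over all regions. Of these members 0 had opposite signs, and over all regions 3 of 121, 55 of 300 and 5 of 269 had. Of the H3K27ac calls among these, 43.8%, 15.4% and 36.8% were also Pol II calls, against 33.2%, 13.7% and 36.1% over all regions. The 2 at 1 h were in Pou6f1 and near Atf1, and both calls near Atf1 ended after centring (0.90 for H3K27ac and 0.69 for Pol II). At 0 h these were at Tuba1a (2), Lima1, the Gm5475 region, Pou6f1 (2) and Acvr1b, and at 18 h at Spats2, Gpd1, Methig1, the Gm5475 region, Fignl2, Ankrd33 and Acvr1b.

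**Figure D5:**
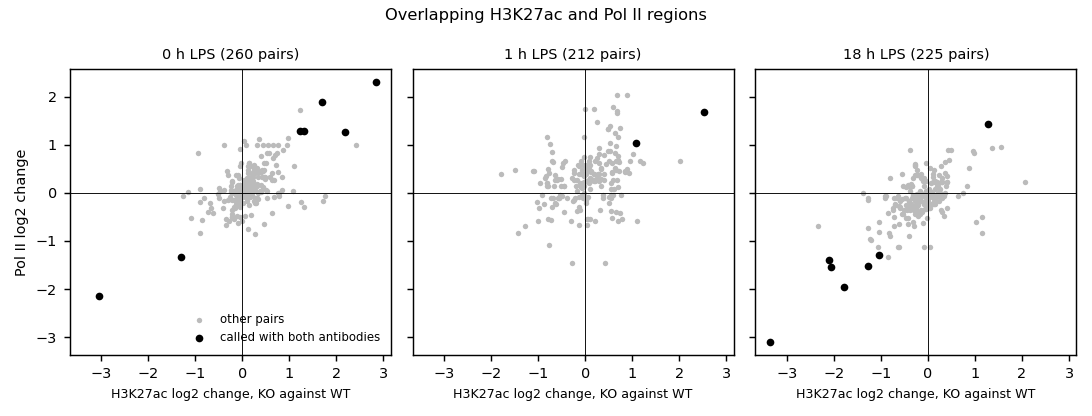
Log2 change in Pol II (vertical axis) against log2 change in H3K27ac (horizontal axis) between KO and WT for overlapping members, 1 point per pair, at 0, 1 and 18 h of LPS. Black points were called with both antibodies, 7, 2 and 7 of them, and all lie in the lower left or upper right part.

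The response of WT cells to LPS gives the scale of these differences. At 1 h, 121 of 307 H3K27ac members were called against 0 h in WT (39.4%, against 40.8% of all regions), 37 higher and 84 lower, and at 18 h 87 of 300 (29.0%, against 38.9%), 28 higher and 59 lower. After centring, the splits were 53 and 54 at 1 h and 40 and 45 at 18 h. For Pol II, 100 of 224 members were called at 1 h (44.6%, against 49.9%), 12 higher and 88 lower, and 52 of 247 at 18 h (21.1%, against 31.1%), 33 higher and 19 lower. Centring turned the Pol II split at 1 h, to 35 higher and 31 lower, as the median of all regions moved from -0.79 to 0.06. More members were called for LPS in WT than for genotype at each time and with each antibody.

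Whether the genotype difference itself changed with LPS was tested by the interaction, which shares the 0 h libraries between its 2 comparisons. For H3K27ac, 8 of 348 members differed at 1 h against 0 h (2.30%, against 3.10% of all regions) and 8 of 341 at 18 h (2.35%, against 1.60%). For Pol II these were 20 of 252 at 1 h (7.94%, against 4.90%), 13 of them towards higher in KO, and 18 of 275 at 18 h (6.55%, against 5.28%), 14 of them towards lower. Some of these Pol II calls, named further below, lay in regions that no library listed at 0 h or that no library listed after LPS. Their values are the genotype difference at the other time only. The H3K27ac count at 1 h was 59 without KO replicate 1 (17.7%, below the 24.7% of all regions). Centring changed the directions. The Pol II interactions at 1 h became 9 towards higher and 12 towards lower in KO, and those at 18 h 5 and 8 (4.73% of members, below the 5.92% of all regions). For H3K27ac at 1 h they went from 5 and 3 to 4 and 4. The lower H3K27ac at 18 h in Pced1b and Fignl2 passed this test, and the 7 members called at all times did not. In the Gm5475 region the interaction by limma was 0.85 at 1 h (SE 0.22, adjusted p = 0.035, below the threshold of 1) and -0.30 at 18 h (adjusted p = 0.53).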

How the data were processed

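ChIP-seq of H3K27ac and Pol II was deposited as 1 region list per library. Per the labels and the article, the authors used Skewer for trimming and HISAT2 2.1.0 for alignment to mm10 (version per the submitters' processing notes), dropped duplicates, and ran HOMER's search for broad regions on each library with no input as control. The headers give 500 bp windows, a Poisson p of 0.001 and stitching below 1000 bp. In the deposited lists, a region's signal is its tags per 10 M of the library. HOMER's region size, per the file headers, and its deposited score were not used in any comparison. Whole reads could not be recovered, so no count test was run.

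Regions of an antibody were merged on overlap (bedtools 2.31.1), tags were summed per library, and a library without a region was set to 0. On the scale log2(normalized tags + 10), limma 3.58.1 (R 4.3.3) fitted 1 linear model of 6 group means over 18 libraries with a moderated, two-sided test and a variance trend. Testing needed a region in 2 or 3 libraries of either group. P-values were Benjamini-Hochberg adjusted over all regions tested in the genome, and called means an adjusted p under 0.05 and a log2 change over 1 in size. Fold changes understate changes of weak regions, and the scale is that of the sum with 10. The test was tried on simulated data. Python 3.11.15, pandas 2.3.3 and matplotlib 3.10.9 did the rest, and gene positions came from GENCODE vM21.

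The members and gene lists were chosen with earlier results of these data known. Named members are, per antibody and time, the 5 largest called increases and decreases with non-overlapping replicates, the 5 nearest on each side of Nr4a1, and those over the start of a listed gene. Other members named (such as those at Krt75, Letmd1, Cox14, Ankrd33, the Fignl2 and Pou6f1 starts for Pol II, the Acvr1b body, and the Pol II region nearest to Krt78) were chosen after their values had been seen. Alternatives were pseudocount 1, stricter and no filters, centring, quantile normalization, a replicate block, leaving out regions over input, and leaving out each replicate. The sequence of 1 member called at all times is not reported here.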

Additional observations from a re-analysis of the deposited data

Results flagged for a closer look

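In these members, taken from those named by the rule in the methods, the genotype difference after LPS differed from that at 0 h by the interaction term of limma (adjusted p under 0.05, absolute log2 difference over 1). Values are log2 differences, and a negative value means that KO moved towards lower against WT. They share the 0 h libraries, and for H3K27ac at 1 h they rest on a KO group in which replicate 1 stood apart.

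At 1 h, the H3K27ac difference moved by 1.35 next to Methig1 and by -1.74 at the weaker Krt75 region, which only 1 library listed at 1 h. For Pol II it moved by 1.62 in C1ql4, where the region also covers part of Troap, by 2.14 at the Gm5475 region, by 1.33 upstream of Acvr1b and by -1.73 in the Lima1 region starting at 99822694. These 4 regions were absent from the lists of both genotypes at 1 h, so each value is the 0 h difference with its sign turned and shows no rise or fall in KO after LPS. In Lima1 it moved by -1.58 in the region starting at 99834246, which only 1 library still listed at 1 h, and by 1.78 in the region starting at 99852395, which was absent from all lists at 0 h. In Dip2b it moved by -2.09 in the region starting at 100114337 and by 1.47 in the region starting at 100174682. It moved by 2.27 in the body and 1.15 over the start of Galnt6 and by -1.86 in Tns2, a focal adhesion gene. After centring, the call over the start of Galnt6 ended (0.85).

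At 18 h, H3K27ac moved by -1.68 in Pced1b and by -1.28 over the start of Fignl2. For Pol II, 7 of the 14 members towards lower in KO were named by the rule, at -1.01 over Slc38a1, -1.73 and -1.65 in the Lima1 regions starting at 99822694 and 99834246, -1.61 and -1.35 in the Pou6f1 regions starting at 100582916 and 100590077, -1.14 over Bin2 and -1.54 in the 3′ part of Fignl2, nearest to Gm47841. Over Bin2, KO was at 881, 885 and 805 and WT at 464, 546 and 526 at 0 h, and at 18 h the order was reversed, with 237, 269 and 245 against 334, 346 and 323. The values above zero were 1.08 in Hdac7, a histone deacetylase gene, 1.62 in C1ql4, 1.43 next to Methig1 and 1.08 in Soat2, a cholesterol acyltransferase gene. The Lima1 region starting at 99822694 and C1ql4 were again absent from all lists at 18 h, and the regions in Hdac7, next to Methig1 and in Soat2 were absent from all lists at 0 h, so these values are the difference at 1 time only. Of members named otherwise, the start of Fignl2 moved by -1.30 and the Acvr1b region starting at 101204918 by -1.42. After centring, the calls over Slc38a1 (-0.85) and Bin2 (-0.98) ended.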

How the results depend on the processing

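Of the named members' values, 74 were called with all libraries, and of their 755 values under the alternatives 0 reversed and 84 lost the call. The other 287 values were not called, and of their 3024 under the alternatives 38 gained a call. Counts of called members moved more, in the settings named here. A count given below without its share over all regions is not read as an excess or a lack among the members. The cause was not tested, except that stricter filters and leaving out regions over input tested fewer members.

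With pseudocount 1, the H3K27ac count was 59 at 1 h (20.3%, against 19.1% of all regions) and 41 averaged over times (11.2%, against 4.88%). The Pol II counts were 25, 47 and 35 at 0, 1 and 18 h (10.7%, 29.6% and 15.9%, against 9.59%, 21.5% and 15.1% of all regions). They were 34 averaged and 97 for LPS in WT at 18 h. Requiring the region in every library gave H3K27ac counts of 5, 12 and 11 at 0, 1 and 18 h and 4 averaged (2.07%, 6.15%, 5.76% and 2.42%, against 0.397%, 8.07%, 1.45% and 0.403% of all regions), 0 and 1 for the interactions at 1 and 18 h, and 60 and 44 for LPS in WT. Of the 183 members behind that 0 by limma, 43 had an unadjusted p under 0.05. For Pol II that filter gave 2, 8 and 6 (1.38%, 8.08% and 4.08%, against 0.922%, 4.72% and 3.12%), 1 averaged, 5 and 6 for the interactions and 46 and 28 for LPS in WT. Without regions over input, H3K27ac gave 3, 8 and 2 (5.66%, 19.0% and 5.88%, against 4.79%, 19.3% and 9.15% of all regions). It gave 1 averaged, 2 for the interaction at 18 h and 28 and 20 for LPS in WT. Pol II gave 3 at 0 h (6.12%, against 3.39% of all regions), 2 at 1 h (11.8%, against 11.0%) and 4 at 18 h. It gave 1 averaged, 5 and 5 for the interactions and 13 and 11 for LPS in WT. Quantile normalization gave 5 for the H3K27ac interaction at 18 h. Centring gave 66 for Pol II under LPS in WT at 1 h.

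Leaving out 1 replicate number gave 9 to 20, 14 to 85 and 14 to 26 H3K27ac calls at 0, 1 and 18 h, and 2 to 64 and 3 to 15 for the interactions. The highest counts at 1 h and for the interactions came without replicate 1, with 85 calls at 1 h (31.6%, against 30.9% of all regions). Without replicate 2 there were 10, 14 and 14 calls at 0, 1 and 18 h (3.33%, 5.22% and 5.56%, against 1.52%, 2.25% and 1.98%), and without replicate 3 there were 9, 17 and 14 (3.02%, 6.56% and 5.58%, against 1.38%, 2.62% and 3.37%). Leaving out 1 KO replicate gave 14 to 21, 24 to 80 and 26 to 32, and 3 to 59 and 7 to 13 for the interactions. Windows of 0.5 Mb gave centromeric shares next to Nr4a1 of 6.25% and 7.14% for H3K27ac at 0 and 1 h and 7.14% for Pol II at 1 h, against 13.0%, 15.9% and 22.6% with 1 Mb. For Pol II at 0 h the share was 5.88%, against 10.6% with 1 Mb. At 18 h the shares were higher with 0.5 Mb, at 23.5% against 20.4% for H3K27ac and 33.3% against 21.7% for Pol II.

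Same-numbered KO and WT libraries of a time did not deviate together (correlations of -0.106 to 0.028 for H3K27ac and -0.063 to 0.109 for Pol II). Numbers were not compared between LPS times, so this cannot show whether a number marks a shared animal, culture or batch. The KO H3K27ac libraries that stood apart at 1 and 18 h were both replicate 1. With a replicate block, 18, 36 and 27 H3K27ac and 11, 21 and 18 Pol II members were called at 0, 1 and 18 h, and 5 for the H3K27ac interaction at 18 h.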
